A study of Homo sapiens with 24 samples.

Results

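The cell cycle and DNA replication genes described here are 46 named genes for cyclins, cyclin-dependent kinases (CDKs), CDK inhibitors, E2F factors, replication proteins and mitotic proteins. They were listed by name and function with earlier results of these data known, and the rule itself used no measured value. A member was measured where the array held a transcript cluster, meaning a group of probes for the same locus, annotated to that single symbol, with the highest mean over the arrays taken where a gene had several. This gave 45 of the 46 members among 18417 genes. CDKN2C, a CDK4 and CDK6 inhibitor, had no such cluster and was not analysed here.

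Total RNA was profiled from 4 non-small cell lung cancer (NSCLC) lines, each an established human line with mutant K-ras. H2009 and H441 are K-ras dependent, that is, they need K-ras to survive, and A549 and H460 are K-ras independent. Every line was stably transduced with a lentiviral vector and kept under puromycin, and carried either δ193, an shRNA against the coding region of PKCδ (the kinase encoded by PRKCD), or δscr, a scrambled shRNA. With 3 biological replicates in each of the 8 groups there were 24 Affymetrix Human Gene 1.0 ST arrays. No other PKCδ shRNA was profiled, so off-target effects of δ193 and effects of PKCδ depletion cannot be told apart. All levels are on the log2 scale of the deposited values, on which a difference of 1 is a 2 fold change, and levels of different genes are not compared because each has its own probes.

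The cell cycle is driven by kinases that are active only while bound to a cyclin. D-type cyclins with CDK4 and CDK6, then cyclin E with CDK2, phosphorylate the RB1 protein and release E2F factors, which switch on genes for DNA replication. Before replication, ORC, CDC6 and CDT1 load the MCM helicase on origins, a step called licensing. Later, cyclin B with CDK1 drives mitosis, for which FOXM1 and a complex with MYBL2 switch on the kinases and motor proteins of the spindle. CDKN1B (p27) and CDKN2B (p15) restrain these kinases. RNA for licensing proteins peaks around the entry into S phase and RNA for mitotic proteins in G2 and mitosis, so levels in a bulk culture depend on how many of its cells are cycling. On bulk arrays, fewer cycling cells and less RNA per cycling cell cannot be told apart.

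These 2 programs also differ in their promoters, and the letters below show the elements by which replication genes and mitotic genes are classically recognized. Each sequence is a RefSeq window on GRCh38.p14 from 250 bases before to 50 bases after an annotated start, printed 5′ to 3′ on the strand of the gene. Capitals mark exact matches on either strand to an E2F site (TTTGGCGC, TTTCCCGC, TTTGCCGC or TTTCGCGC), to the CHR element of mitotic genes (TTTGAA) or to a CCAAT box (CCAAT), and neighbouring matches can overlap. The first pair of genes encode licensing proteins, MCM6 (chr2:135876394-135876693, minus strand) and CDC6 (chr17:40287629-40287928, plus strand), and the second pair mitotic proteins, the proliferation antigen MKI67 (chr10:128126374-128126673, minus strand) and the anaphase activator CDC20 (chr1:43358731-43359030, plus strand).
MCM6: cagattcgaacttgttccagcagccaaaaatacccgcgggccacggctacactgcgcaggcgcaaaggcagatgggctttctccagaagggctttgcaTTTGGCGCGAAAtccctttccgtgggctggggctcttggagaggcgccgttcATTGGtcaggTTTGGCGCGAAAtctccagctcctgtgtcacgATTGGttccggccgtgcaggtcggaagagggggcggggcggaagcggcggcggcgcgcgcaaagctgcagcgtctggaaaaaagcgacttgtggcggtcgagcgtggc
CDC6: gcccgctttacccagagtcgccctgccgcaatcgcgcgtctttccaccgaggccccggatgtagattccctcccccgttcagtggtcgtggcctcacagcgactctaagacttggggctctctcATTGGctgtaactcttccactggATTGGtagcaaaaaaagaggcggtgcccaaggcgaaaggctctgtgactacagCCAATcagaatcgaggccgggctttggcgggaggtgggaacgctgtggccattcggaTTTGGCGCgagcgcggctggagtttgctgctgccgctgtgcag
MKI67: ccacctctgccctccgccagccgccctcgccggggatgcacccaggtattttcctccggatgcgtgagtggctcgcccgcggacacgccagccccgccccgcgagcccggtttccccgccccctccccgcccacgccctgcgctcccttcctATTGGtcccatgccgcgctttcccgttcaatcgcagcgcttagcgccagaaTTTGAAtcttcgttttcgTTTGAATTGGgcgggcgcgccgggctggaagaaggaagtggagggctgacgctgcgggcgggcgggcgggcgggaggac
CDC20: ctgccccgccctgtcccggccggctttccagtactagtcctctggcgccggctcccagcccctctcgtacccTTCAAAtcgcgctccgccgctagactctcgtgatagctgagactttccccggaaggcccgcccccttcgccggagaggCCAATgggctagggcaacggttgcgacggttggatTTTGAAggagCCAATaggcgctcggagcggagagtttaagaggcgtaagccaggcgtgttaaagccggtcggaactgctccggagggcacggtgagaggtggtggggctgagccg
The windows of MCM6 and CDC6 held E2F matches and no CHR match, and those of MKI67 and CDC20 held 2 CHR matches each and no E2F match. In MCM6 each of the 12 base stretches in capitals is a pair of E2F matches that overlap, 1 on each strand. A window was at hand for 36 of the 45 members and for 14239 of all genes tested. An E2F match was present in 6 of 6 windows of licensing genes and in 0 of 10 windows of mitosis genes, beside 4.52% of all windows. A CHR match was present in 0 of 6 licensing windows, in 6 of 10 mitosis windows and in 3 of 4 windows of the mitotic cyclins with CDK1 (CCNB2, CCNF and CDK1), beside 11.9% of all windows. A CCAAT box was present in 23 of the 36 windows of members, beside 36.3% of all windows. A match describes these letters in this window and is not a measured binding site.

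The arrays were checked before the members were compared. PRKCD was lower on every δ193 array than on every δscr array of the same line, and the means differed by -2.25 (H2009), -2.40 (H441), -1.26 (A549) and -2.03 (H460). The keratins KRT8 and KRT18 of simple epithelia were high in all 4 lines, with δscr means from 11.29 to 12.48. The epithelial adhesion molecule EPCAM was high in H2009 alone (11.20, with H441 at 5.89, A549 at 4.71 and H460 at 5.45). Over all 5 epithelial markers, which include KRT19 and CDH1, the mean level of the δscr arrays was 11.27 to 11.32 in H2009. It was 8.94 to 9.12 in H441, 8.49 to 8.85 in A549 and 8.10 to 8.22 in H460. The lung markers NKX2-1, SFTPB, SFTPC and SCGB1A1 were low in every line, with δscr means from 3.61 to 5.55, also in H441, a line otherwise known for surfactant proteins, and the identity of the lines was not tested. Summed over their lists as a mean level, markers of immune cells (3.70 to 4.40 over the 24 arrays), fibroblasts (4.17 to 4.63) and endothelial cells (3.46 to 3.84) lay below 5.79, the median of the gene means. By mean over the 24 arrays, the highest single marker was at 5.22 (immune cells) and 3.86 (endothelial cells). For fibroblasts it was at 6.27, above that median. The H441 arrays stood apart in their spread. Their median residual variance, set against the median of the other lines, was 2.55 times as large over all genes and 17.2 times over the members. Over the members it came mainly from the δ193 arrays, described further on (median standard deviation, SD, 0.37, against 0.10 with δscr). Over all genes the median SD was 0.19 on the H441 δ193 arrays and 0.14 with δscr (groups of other lines, 0.08 to 0.11). Where a fit without the H441 arrays, or of each line alone, changes a call of a member described below, its values are given beside that member.

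Without PKCδ depletion, the 4 lines differed in most cell cycle genes, and H441 stood at the low end for mitosis and at the high end for licensing. Among the 12 δscr arrays, 39 of the 45 members differed among the lines by the limma F test (adjusted p under 0.05 over all genes, and at least 0.32 on the log2 scale between the highest and the lowest line), or 86.7%, beside 71.7% of all genes tested. The largest difference between 2 lines was a median of 0.93 over the 45 members and of 0.63 over all genes. It exceeded 1 in 19 called members, beside 29.4% of all genes (5422), and it exceeded 2 in 3 (CDK6, CENPE and BUB1). Of the 39 called members H441 was the lowest line for 25 (64.1%), beside 30.9% of all called genes, and H2009 was the highest for 16 (41%), beside 24.1%. Of the 6 members that were not called, 3 were licensing genes (MCM3, MCM4 and CDC6) and the others were CDK2, CCNF and RRM2.

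**Figure D1:**
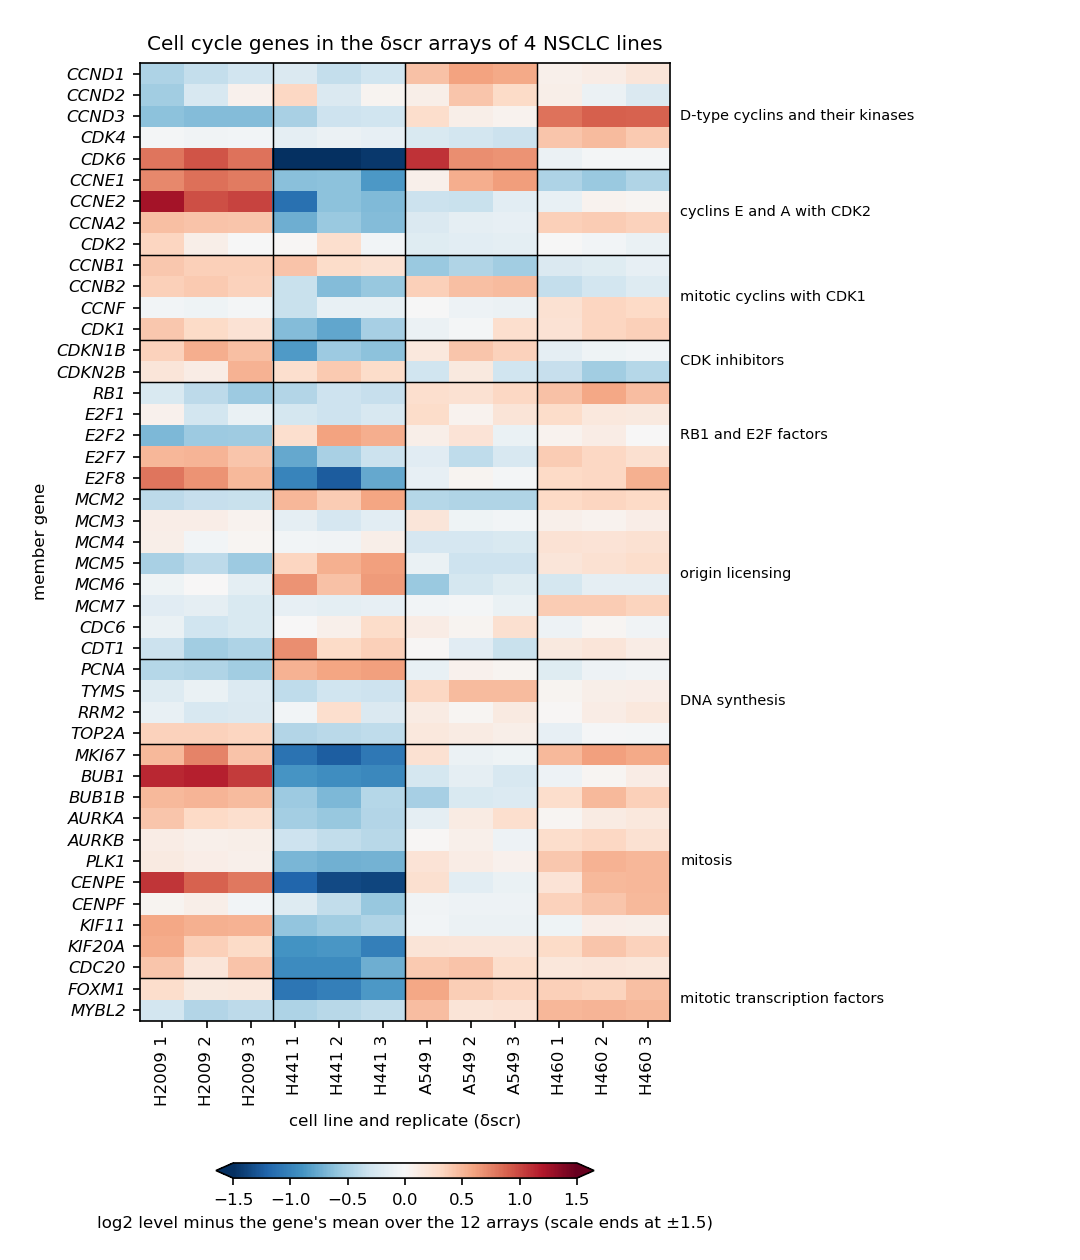
Levels of the 45 members (rows, grouped by role) on the 12 δscr arrays (columns, 3 replicates of each line) as log2 level minus the mean of the gene over those arrays, on a colour scale that ends at -1.5 and 1.5. Every mitosis gene is blue (low) in H441, and CDK6 is low there too, whereas MCM2, MCM5, MCM6, CDT1 and PCNA are red (high) in H441.

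All 11 mitosis genes were lowest in H441. Lines are said here not to differ where their pair missed the call, which does not show equal levels. MKI67, which codes for the antigen Ki-67, measured 7.84, 7.71 and 7.88 on the H441 δscr arrays and 9.43, 9.69 and 9.38 on those of H2009. CENPE, a kinesin that links chromosomes to the spindle, measured 5.51, 5.35 and 5.33 in H441 and 7.78, 7.58 and 7.50 in H2009. BUB1, a spindle checkpoint kinase, measured 8.24, 8.20 and 8.15 in H441 and 10.25, 10.29 and 10.17 in H2009. For each of these genes no H441 array reached any H2009 array, and the gap between the means was 1.69, 2.22 and 2.04. A549 and H460 lay between, with MKI67 means of 8.97 ± 0.18 (SD, n = 3) and 9.50 ± 0.06. H460 and H2009 did not differ in MKI67, and A549 lay below both and above H441. For CENPE and BUB1 the order was H2009, then H460 and A549, which did not differ from each other beyond the threshold, then H441. The remaining mitosis genes spanned from 0.63 (AURKB, the chromosomal passenger kinase) to 1.33 (KIF20A, a kinesin of cytokinesis) between their highest and lowest lines. CDC20 (9.45 ± 0.12 in H441 against 10.50 to 10.69 elsewhere), AURKA, AURKB and KIF20A separated H441 from the other lines, which did not differ among each other. The mitotic transcription factor FOXM1 had the same pattern, with 8.03 ± 0.12 in H441 and 9.21 to 9.44 in the others, and MYBL2 did not differ between H441 (9.23) and H2009 (9.28) but was higher in A549 (9.93) and H460 (10.14).

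Part of the licensing genes were higher in H441 than in H2009 and A549, but not, as a group, than in H460. H441 was higher in 4 of the 8 and lower in 0 against each of H2009 and A549, with 4 not called. Against H460 it was higher in 1 and lower in 1, with 6 not called. Of all 18417 genes, 4453, 4155 and 3912 were higher in H441 against H2009, A549 and H460, and 4634, 4753 and 4446 were lower. Of the 5 licensing genes called among the lines, 4 were highest in H441 (MCM2, MCM5, MCM6 and CDT1), beside 29.1% of all called genes, and MCM7 was highest in H460. MCM6, a subunit of the replicative helicase, measured 9.31, 9.08 and 9.27 on the H441 δscr arrays, 8.58, 8.64 and 8.50 in H2009, 8.08, 8.37 and 8.46 in A549, and 8.38, 8.51 and 8.51 in H460. Every H441 array lay above every array of the other lines, and those lines did not differ among each other. MCM5, another subunit, had a mean of 9.46 ± 0.15 in H441 and of 9.20 ± 0.04 in H460, which did not differ, and of 8.73 ± 0.12 in A549 and 8.50 ± 0.07 in H2009. PCNA, the clamp that holds DNA polymerase on its template, was also highest in H441 (10.46 ± 0.04, against 9.42 ± 0.05 in H2009). TYMS, which makes thymidylate, spanned 0.75 between A549 and H441, and TOP2A, the topoisomerase that untangles sister chromatids, 0.75 between H2009 and H441, with H441 the lowest in both. H2009 and H441 did not differ in TYMS.

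Over the 8 licensing genes the δscr arrays of H441 had a mean level of 0.18 to 0.30 relative to the mean of all 24 arrays, and over the 11 mitosis genes of -0.78 to -0.72. The H2009 δscr arrays had the opposite arrangement, with -0.22 to -0.15 for licensing and 0.39 to 0.49 for mitosis. H460 lay above the mean for both (0.14 to 0.18 and 0.20 to 0.33), and A549 below it for licensing (-0.17 to -0.11) with mitosis from -0.01 to 0.02. The K-ras dependent lines H2009 and H441 thus lay at opposite ends for mitosis.

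**Figure D2:**
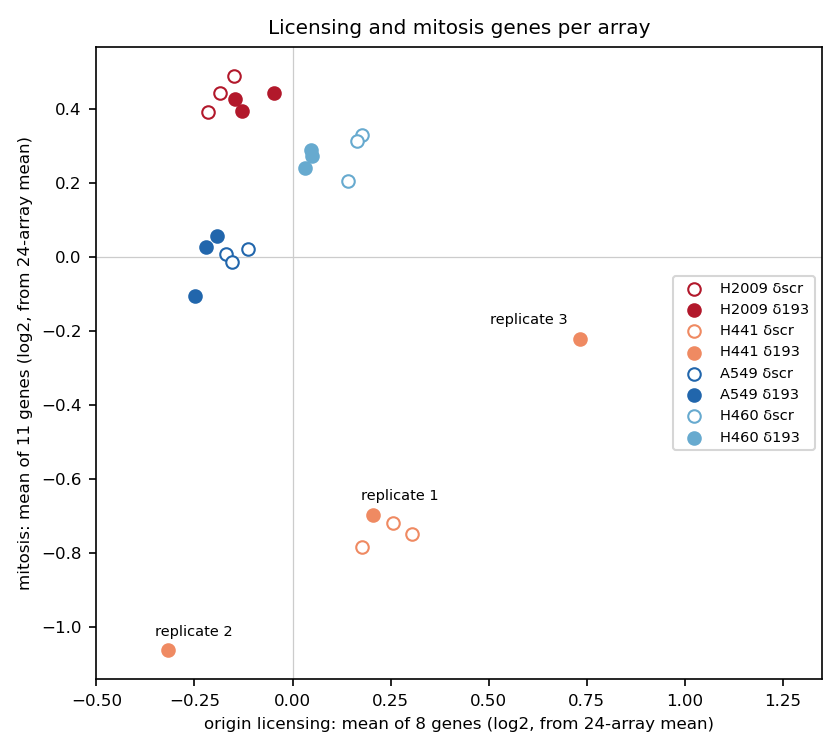
Each point is 1 of the 24 arrays, with the mean of 8 licensing genes on the horizontal axis and of 11 mitosis genes on the vertical axis, both on the log2 scale from the 24-array mean (open, δscr; filled, δ193; colour, line). H441 lies low for mitosis and H2009 high, the δ193 arrays of H2009, A549 and H460 stay near their δscr arrays, and the 3 δ193 arrays of H441 run from -0.32 and -1.06 (replicate 2) to 0.73 and -0.22 (replicate 3).

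The kinases and cyclins of G1 differed by line in another way. CDK6, a partner of the D-type cyclins, had the widest range of all members. It measured 6.27, 6.66 and 6.74 on the H441 δscr arrays, 8.99, 9.13 and 9.00 in H2009, 9.27, 8.89 and 8.86 in A549, and 8.10, 8.15 and 8.16 in H460. The H441 mean lay 2.48 below that of H2009, a 5.58 fold difference, H2009 and A549 did not differ, and H460 lay between them and H441. CCND3 (cyclin D3) had a range of 1.51 with H460 the highest (10.51 ± 0.04) and H2009 the lowest (8.99 ± 0.02), and CCND1 (cyclin D1) a range of 0.90 with A549 the highest. H2009 and H441 did not differ in CCND3. CCND2 (cyclin D2) was low in all lines, with means from 3.42 to 3.92. Both E cyclins and CCNA2 (cyclin A2) were highest in H2009 and lowest in H441, with ranges of 1.47 for CCNE1, 1.87 for CCNE2 and 1.08 for CCNA2. H441 did not differ from H460 in CCNE1 or from A549 in CCNE2, and H2009 did not differ from H460 in CCNA2. The inhibitor CDKN1B followed the same 2 lines, with 8.22 ± 0.10 in H2009 and 7.10 ± 0.16 in H441, and H2009 and A549 did not differ in it.

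Among E2F factors, the repressors E2F7 and E2F8 were highest in H2009 and lowest in H441, and the activator E2F2 was highest in H441 and lowest in H2009. H2009 and H460 did not differ in E2F7 or E2F8, and H441 and A549 did not differ in E2F7. E2F8 measured 6.01, 5.76 and 6.22 on the H441 δscr arrays, below every array of H2009 (7.80, 7.67 and 7.49), A549 (6.87, 7.04 and 6.97) and H460 (7.29, 7.31 and 7.54), and the range of the means was 1.66. E2F7 had means of 8.59 ± 0.05 in H2009 and 7.59 ± 0.23 in H441. E2F2 had a range of 1.05, with 5.91 ± 0.19 in H441 and 4.86 ± 0.08 in H2009. RB1 was higher in H460 (9.08 ± 0.08) and A549 (8.85 ± 0.04) than in H441 (8.22 ± 0.07) and H2009 (8.19 ± 0.16), and neither pair differed within itself. The mitotic cyclins CCNB1 and CCNB2 differed in which line was lowest, A549 for CCNB1 (9.07 ± 0.05) and H441 for CCNB2 (9.38 ± 0.17). H441 and H460 did not differ in CCNB2.

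All 6 pairs of lines were compared, with a call at an adjusted p under 0.05 over all genes and a difference of at least 0.32. H2009 and H441 differed in 28 members (all genes, 49.3%), 22 of them higher in H2009 (25.2% of all genes) and 6 higher in H441. H441 differed from A549 in 32 members (48.4% of all genes), 24 of them lower in H441 (25.8%), and from H460 in 33 members (45.4% of all genes), 28 of them lower in H441 (24.1%). Pairs without H441 differed in fewer members, 20 between H2009 and A549 (41.4% of all genes), 23 between H2009 and H460 (35.5%) and 18 between A549 and H460 (38.9%). In H441, mitosis genes were lower in 11 of 11 cases against H2009, 11 of 11 against H460 and 9 of 11 against A549.

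In the fit of all arrays, few cell cycle genes were called as changed with PKCδ depletion. At the same call, H2009 had 1 of 45 members changed (beside 4.91% of all genes), H441 had 3 (14.3%), A549 had 1 (4.63%) and H460 had 2 (5.45%). In H441 2 of the 3 were higher (7.09% of all genes were) and 1 lower (7.22%). These shares are at or below those of all genes. Altogether 6 members changed in at least 1 line (CDK6, E2F8, RB1, MYBL2, AURKB and CDC20), or 13.3%, beside 22.5% of all genes, and 39 in none. CDK6 was the only one called in 2 lines, where 5.42% of all genes were called in 2 or more. No member changed 2 fold. The median change of the 45 members was 0.03 (H2009), 0.00 (H441), -0.05 (A549) and -0.04 (H460), beside 0.01, 0.00, 0.01 and 0.01 over all genes. At an unadjusted p under 0.05, from the same limma fit, there were 8, 8, 6 and 6 members (17.8%, 17.8%, 13.3% and 13.3%), beside 16.4%, 29%, 15.3% and 16.6% of all genes. The 95% confidence interval of the change lay within 1.5 fold in either direction for 40 of 45 members (H2009), 35 (H441), 39 (A549) and 40 (H460). For the others, called members among them, the interval reached past 1.5 fold, so in this fit a change of that size was not excluded.

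The fit of all arrays shares 1 estimate of the spread among the lines, which includes that of the H441 arrays, and smaller changes passed in the other lines when it did not. With each line fitted alone the interval lay within 1.5 fold for 43 of 45 members in each of H2009, A549 and H460. There 15, 11 and 14 members had an unadjusted p under 0.05 by limma (33.3%, 24.4% and 31.1%), beside 19.5%, 18% and 28.9% of all genes. With H441 alone there were 2 (4.44%), beside 15.6%. In H2009, A549 and H460 alone, 2, 2 and 3 members were called (4.87%, 4.13% and 8.6% of all genes). Without the 6 H441 arrays, a choice made after seeing the data, 2 members were called in H2009 (MYBL2 and CDC6, 7.23% of all genes), 3 in A549 (CDK6, E2F7 and CDKN1B, 6.73%) and 3 in H460 (CDK6, E2F8 and CENPF, 7.72%). In that fit 35.6%, 31.1% and 26.7% of members had an unadjusted p under 0.05, beside 23.6%, 21.6% and 23.3% of all genes. For the mean over lines it was 40% of members, beside 27.1%, and for the class difference 35.6%, beside 20.6%. CENPF, a kinetochore protein, differed by -0.36 in H460 and was called with H460 alone (adjusted p = 0.00668) and without the H441 arrays (adjusted p = 0.00856) but not in the fit of all arrays. The class difference without the H441 arrays, which is H2009 against A549 and H460, was called in 3 members (7.41% of all genes), none of them called with H441 present. These were MYBL2 (0.60, adjusted p = 0.000384), CCND3 (0.40, adjusted p = 0.00477) and RB1 (0.39, adjusted p = 0.0184).

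**Figure D3:**
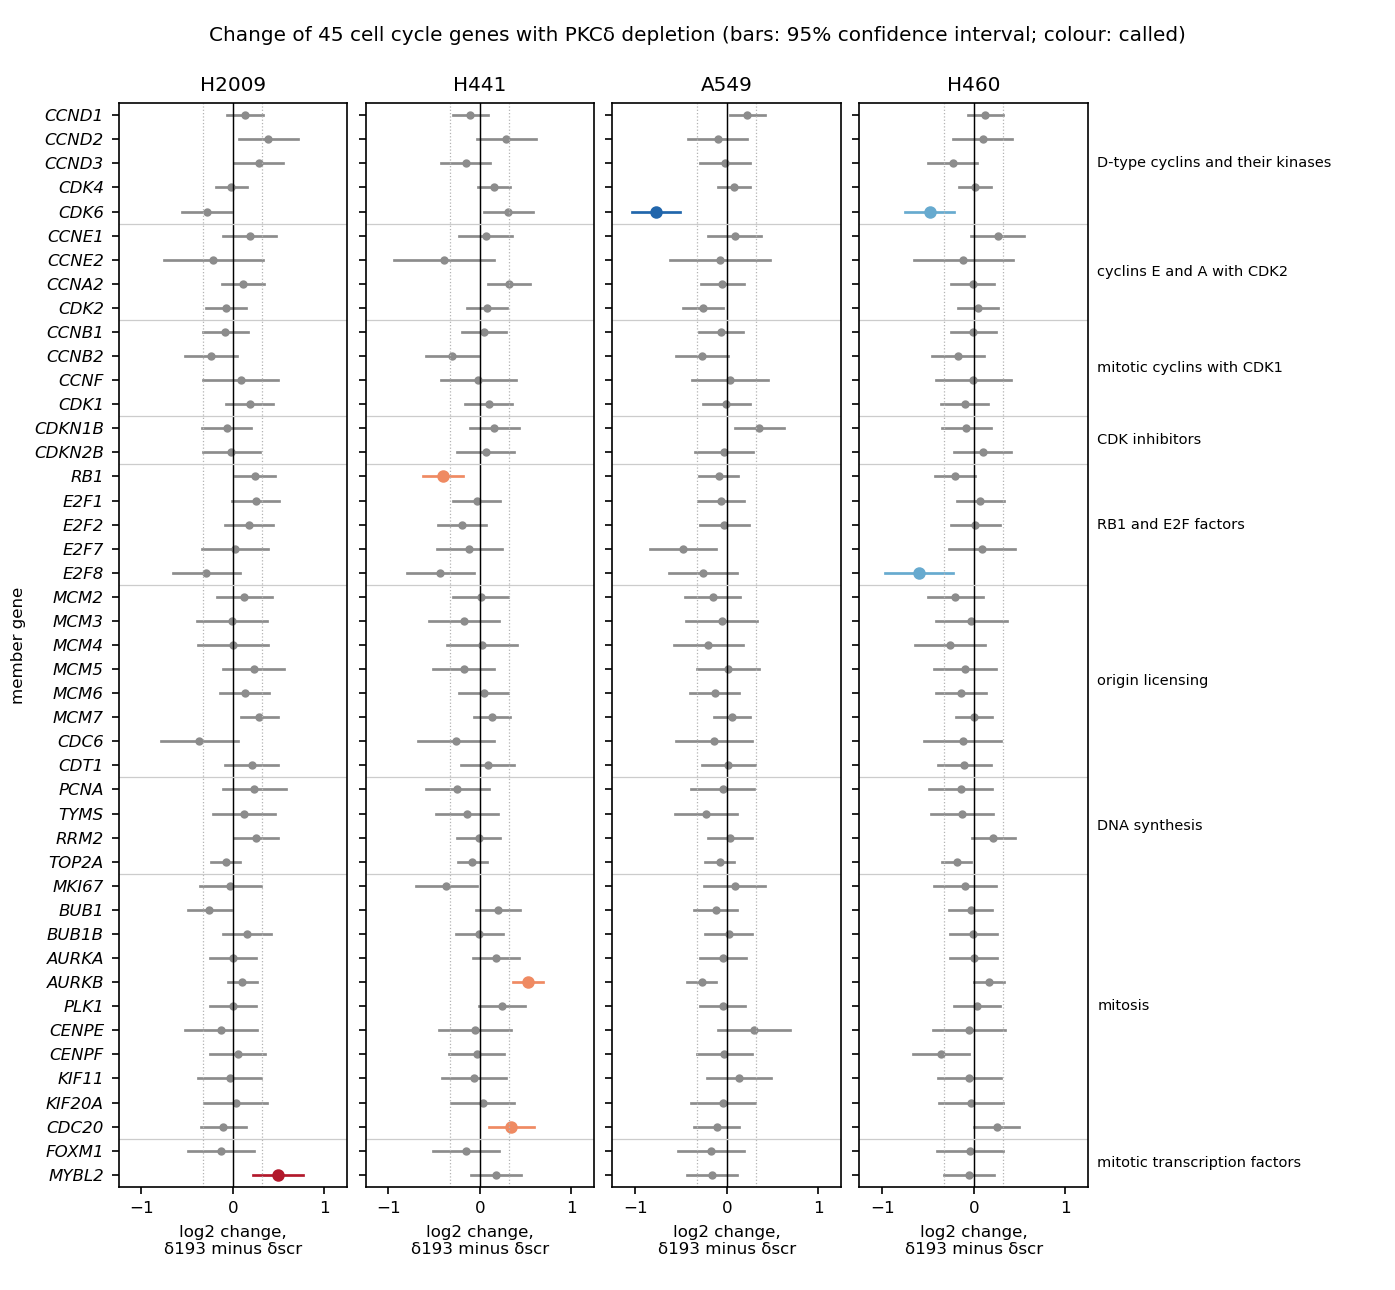
Change of each member (rows, grouped by role) with δ193 in each line as the difference of means on the log2 scale, with its 95% confidence interval from limma; coloured points were called, grey points were not, and dotted lines mark the minimum of 0.32 for a call. Most points lie between the dotted lines, and the 7 coloured points are CDK6 in A549 and H460, E2F8 in H460, RB1, AURKB and CDC20 in H441, and MYBL2 in H2009.

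CDK6 was lower with PKCδ depletion in both K-ras independent lines. In A549 it measured 9.27, 8.89 and 8.86 with δscr and 8.46, 8.24 and 7.99 with δ193, and in H460 8.10, 8.15 and 8.16 with δscr and 7.71, 7.68 and 7.58 with δ193. In neither line did the groups overlap. CDK6 fell by 0.77 in A549 (standard error 0.13, adjusted p = 0.000462, limma) and by 0.48 in H460 (standard error 0.13, adjusted p = 0.0249). The A549 call held without any 1 of the 24 arrays, and the H460 call was lost without any 1 of the 6 H460 arrays (highest adjusted p = 0.117) but held with H460 fitted alone (adjusted p = 0.00171) and without the H441 arrays (adjusted p = 0.00819). In H2009 the values were 8.99, 9.13 and 9.00 with δscr and 8.78, 8.82 and 8.66 with δ193, a difference of -0.29 (95% confidence interval -0.55 to -0.02) that did not pass (adjusted p = 0.253), although the groups did not overlap. In H441, the line with the lowest CDK6, they were 6.27, 6.66 and 6.74 with δscr and 6.98, 6.69 and 6.94 with δ193, and the groups overlapped. The difference there was 0.31 (95% confidence interval 0.04 to 0.58, adjusted p = 0.105). The change in the K-ras dependent lines minus that in the independent lines was 0.64 (standard error 0.13, adjusted p = 0.00451), 1 of 2 members with a called class difference (4.65% of all genes). Without the 6 H441 arrays it was 0.34 (adjusted p = 0.154) and no longer passed.

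E2F8, a repressor of E2F targets, was the only member called for the mean change over the 4 lines (3.63% of all genes were). Its H460 arrays measured 7.29, 7.31 and 7.54 with δscr and 6.81, 6.75 and 6.79 with δ193, with no overlap, and it fell there by 0.60 (standard error 0.18, adjusted p = 0.0494), a call lost in 20 of 24 fits that left out 1 array (highest adjusted p = 0.211). It held with H460 fitted alone (adjusted p = 0.0018) and without the H441 arrays (adjusted p = 0.000231). The δ193 mean was lower in the other lines as well, by values that did not pass, -0.29 in H2009, -0.43 in H441 and -0.26 in A549, and the arrays overlapped in H441 alone (6.01, 5.76 and 6.22 with δscr, 5.64, 4.94 and 6.11 with δ193). The mean of the 4 changes was -0.39 (95% confidence interval -0.58 to -0.21, adjusted p = 0.00316). Leaving out H441 δ193 replicate 2 brought it to -0.32, just under the minimum for a call, and without the 6 H441 arrays the mean over 3 lines was -0.38 (adjusted p = 6.94e-05). CDK6 had a mean change of -0.31 (adjusted p = 0.00156) that missed that minimum, and without the H441 arrays it was -0.51 (adjusted p = 2.66e-05) and passed, with 3.25% of all genes called. Beyond E2F8, 6 members had a lower mean with δ193 in all 4 lines (CCNE2, CCNB2, MCM3, CDC6, TOP2A and FOXM1) and 2 a higher one (CCNE1 and MCM7), without a call for the mean in any of them. With E2F8 that is 15.6% of members lower and 4.44% higher in all lines, beside 8.63% and 10.3% of all genes.

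MYBL2, whose product binds mitotic promoters, rose in H2009. It measured 9.37, 9.21 and 9.26 with δscr and 9.81, 9.73 and 9.78 with δ193, with no overlap, a change of 0.49 (standard error 0.13, adjusted p = 0.0277). The call was lost without any H2009 array other than δscr replicate 1 (highest adjusted p = 0.103), and held with H2009 fitted alone (adjusted p = 0.0108) and without the H441 arrays (adjusted p = 0.000221). In the other lines the differences were 0.18 (H441), -0.16 (A549) and -0.05 (H460), with no call. The difference between the K-ras classes was 0.44 (adjusted p = 0.0555) and did not pass, but it was called without the H441 arrays, as given above. Its partner in mitotic transcription, FOXM1, differed by -0.13 in H2009.

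**Figure D4:**
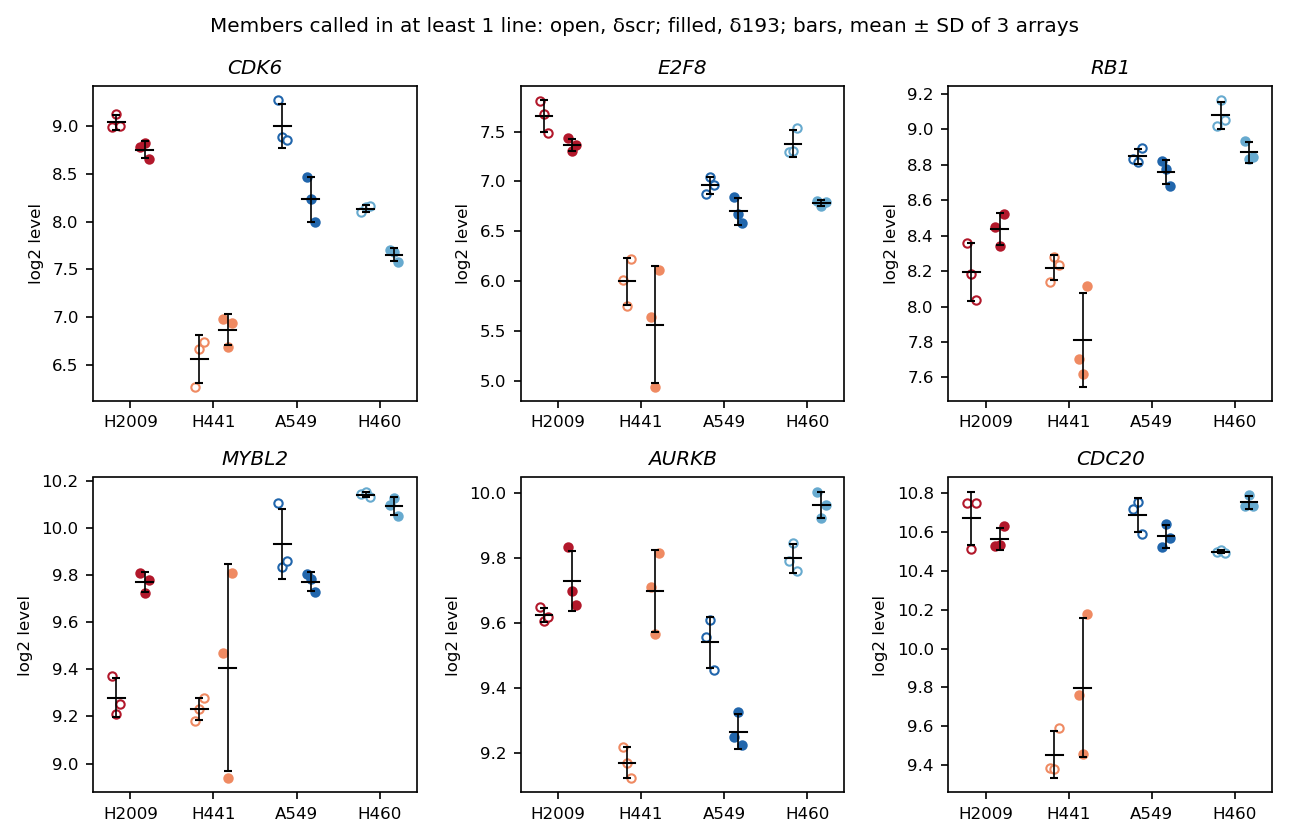
Log2 levels of the 6 members called in at least 1 line on each of the 24 arrays (open, δscr; filled, δ193), with mean and SD of 3 arrays. Among the called changes, the groups of CDK6 in A549 and H460, E2F8 in H460, MYBL2 in H2009 and AURKB and RB1 in H441 do not overlap. Those of CDC20 in H441 do. The δ193 arrays of H441 have the longest bars in E2F8, RB1, MYBL2 and CDC20.

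In H441, 3 members passed. The δ193 arrays of this line differed widely in most members, but by 1.19 fold between replicates 3 and 2 for AURKB. AURKB measured 9.22, 9.17 and 9.12 with δscr and 9.71, 9.57 and 9.82 with δ193, without overlap, and rose by 0.53 (standard error 0.08, adjusted p = 4.75e-05). Its direction was not shared by A549 (-0.28, adjusted p = 0.0396, under the minimum of 0.32), and the difference was 0.10 in H2009 and 0.16 in H460. The difference between the K-ras classes was 0.37 (adjusted p = 0.00561). It was 0.16 (adjusted p = 0.266) without the 6 H441 arrays. CDC20, which activates the anaphase ubiquitin ligase, measured 9.39, 9.38 and 9.59 with δscr and 9.76, 9.46 and 10.18 with δ193. These groups overlapped, and the change of 0.35 had an adjusted p of 0.0489 and was lost in 21 of 24 fits that left out 1 array (highest adjusted p = 0.291). RB1 measured 8.14, 8.28 and 8.24 with δscr and 7.70, 7.62 and 8.11 with δ193, without overlap, and fell by 0.41 (standard error 0.11, adjusted p = 0.00891). With the spread taken from the H441 arrays alone, 0 members passed in H441 by limma (2 at an unadjusted p under 0.05), with adjusted p of 0.0676 for AURKB, 0.226 for RB1 and 0.408 for CDC20. There the confidence interval lay within 1.5 fold for 19 of 45 members.

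The spread of the H441 δ193 arrays ran through almost the whole cell cycle list. Over the 45 members the mean level relative to the 24-array mean was -0.35, -0.34 and -0.30 on the δscr arrays and -0.35, -0.72 and 0.05 on δ193 replicates 1, 2 and 3. Replicate 3 was the highest and replicate 2 the lowest of the 3 in 40 of 45 members (88.9%), beside 24.2% of all genes. The exceptions were CCND2, CDK6, CDK1, CDKN1B and CDKN2B. Among them CDKN1B and CCND2, which was low in all lines, had the opposite order, with replicate 2 the highest and replicate 3 the lowest. That order was found in 4.44% of members, beside 19.7% of all genes. The range of the 3 δ193 arrays had a median of 0.74 over the members and of 0.35 over all genes, whereas in each of the other 7 groups the median over the members (0.09 to 0.20) was below that over all genes (0.15 to 0.27).

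**Figure D5:**
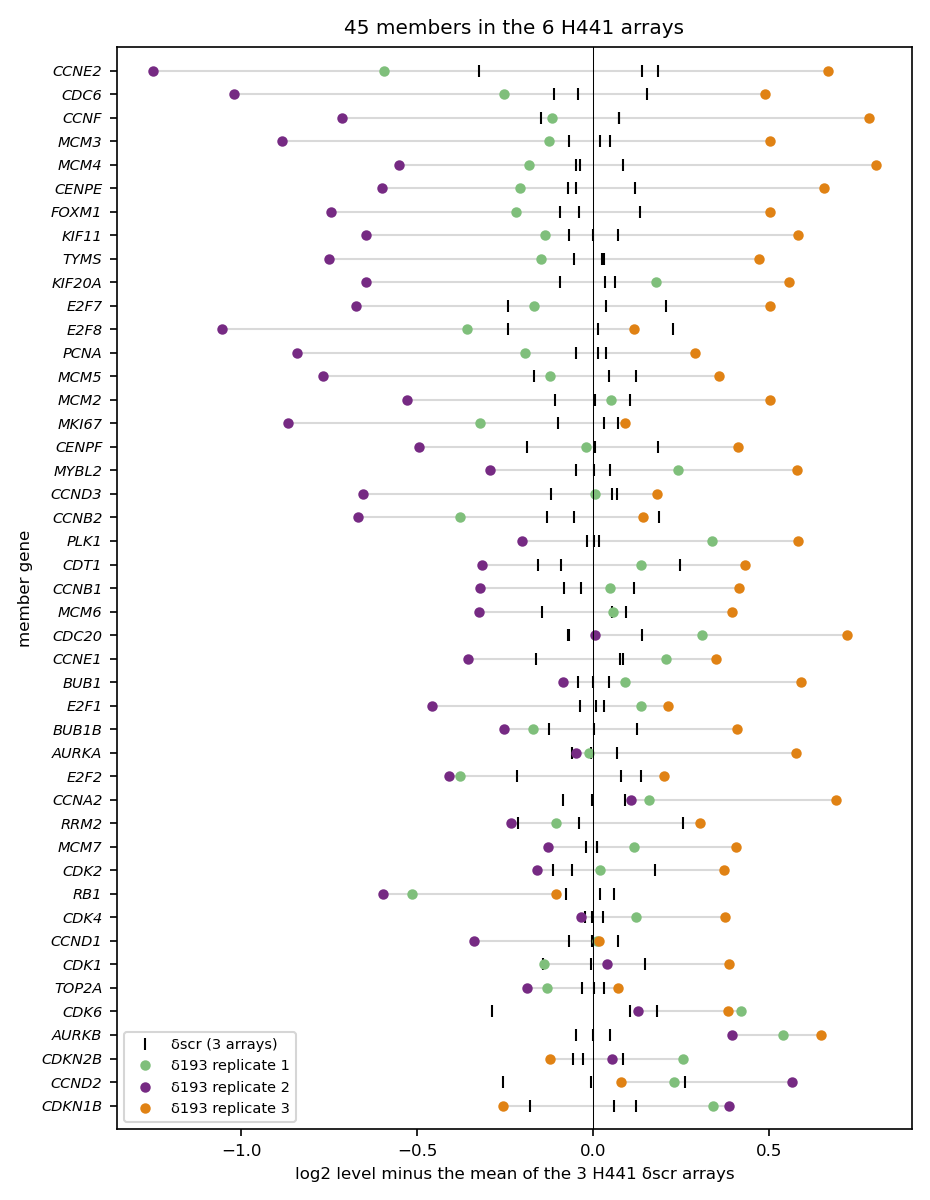
The 45 members (rows, ordered by the difference between δ193 replicates 3 and 2) on the 6 H441 arrays, as log2 level minus the mean of the 3 δscr arrays (ticks, δscr; circles, δ193). Replicate 2 lies to the left and replicate 3 to the right in most rows, replicate 1 and the δscr arrays lie between, and CDKN1B and CCND2 at the bottom run the other way.

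CCNE2, a G1/S cyclin, had the widest gap, with 6.12, 5.46 and 7.38 on δ193 replicates 1, 2 and 3 and 6.39, 6.90 and 6.85 on the δscr arrays. CDC6, which loads the helicase, measured 9.35, 8.58 and 10.09 with δ193 and 9.49, 9.56 and 9.76 with δscr. Replicates 3 and 2 differed 3.78 fold for CCNE2 and 2.84 fold for CDC6, and between 2.37 and 2.82 fold for CCNF, MCM3, MCM4, CENPE and FOXM1. In each of these, δ193 arrays of the same label lay on both sides of the δscr arrays. AURKB differed by 1.19 fold between the same arrays and CDK6 by 1.20 fold. PRKCD had the same order, with 5.69, 4.68 and 6.00 on replicates 1, 2 and 3. Its part in the spread was not tested.

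The H441 calls therefore depended on which array was present. Without δ193 replicate 2 there were 8 calls, all higher (AURKB, BUB1, CCNA2, CDC20, CDK6, KIF20A, MYBL2 and PLK1), beside 15.8% of all genes. Without replicate 3 there were 19, 17 of them lower, beside 16.7% of all genes. Those 17 included MCM3, MCM4, MCM5, PCNA, TYMS, CDC6, E2F7, E2F8, MKI67 and FOXM1, and RB1. Without replicate 1 there were 3 (AURKB and CCNA2 higher, RB1 lower), beside 14.9%. AURKB was called in every one of these settings, always higher. RB1 was called without replicate 1 or 3 and missed without replicate 2 (adjusted p = 0.0505).

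Members called in no line are described by the largest difference of each role. For D-type cyclins and their kinases this was CCND2 in H2009 (0.39), for cyclins E and A with CDK2 it was CCNE2 in H441 (-0.39), and for the mitotic cyclins CCNB2 in H441 (-0.30). The inhibitor CDKN1B differed by 0.35 in A549 and E2F7 by -0.48 in the same line, where the arrays of both genes did not overlap and the adjusted p were 0.139 and 0.132. E2F7 was called there with A549 fitted alone (adjusted p = 0.0304) and without the H441 arrays (adjusted p = 0.000624), and CDKN1B without the H441 arrays (adjusted p = 0.0152) but not with A549 alone (adjusted p = 0.0615). CDC6 differed by -0.37 in H2009, also without overlap (9.38, 9.18 and 9.25 against 8.92, 8.86 and 8.93, adjusted p = 0.393), and was called there with H2009 fitted alone (adjusted p = 0.0378) and without the H441 arrays (adjusted p = 0.00417). The 8 licensing genes differed by no more than 0.37 in any line, with 0 called. DNA synthesis genes differed by no more than 0.25. Among mitosis genes MKI67 differed by -0.37 in H441 and by -0.03 in H2009, 0.08 in A549 and -0.09 in H460.

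Other genes of the pathway were taken from 4 lists of G1 control, origin firing, fork and nucleotide supply, and G2 and mitosis, 94 of whose 96 genes were analysed here. In H2009 2 of them rose, in H441 7 rose and 1 fell, in A549 1 fell and in H460 2 fell. These are 2.13%, 8.51%, 1.06% and 2.13% of the lists, below the shares of all genes given for the members. With H441 fitted alone, 0 of its 8 pathway calls remained (adjusted p from 0.0855 to 0.297). GINS3, a subunit of the active replicative helicase, rose by 0.64 in H2009 (7.09 ± 0.09 to 7.73 ± 0.11, adjusted p = 0.00898) and by 0.54 in H441 (adjusted p = 0.0124), and TFDP2, a dimer partner of E2F factors, fell by 0.39 in A549 (adjusted p = 0.0147) and by 0.35 in H460 (adjusted p = 0.0278). WEE1, the kinase that inhibits CDK1, rose by 0.53 in H2009. In H441 the inhibitor CDKN1A (p21) fell by 0.57, DBF4, which activates the origin-firing kinase CDC7, rose by 0.52, and GINS3 had the second largest change. The phosphatase CDC25C, which activates CDK1, fell by 0.42 in H460. In the fits of each line alone, GINS3 and WEE1 in H2009 and TFDP2 and CDC25C in H460 kept their calls. TFDP2 in A549 lost its call with A549 fitted alone and kept it without the H441 arrays. The order of the 3 H441 δ193 arrays held here too, with replicate 3 highest and replicate 2 lowest in 69 of 94 genes (73.4%).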

How the data were processed

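RNA from 8 groups of 3 biological replicates was hybridized to Affymetrix Human Gene 1.0 ST arrays. The authors deposited log2 values, made with RMA in Affymetrix Power Tools, a method that corrects background, gives all arrays a common distribution and summarizes probes. Program versions are not stated in the methods or labels. RMA sets the distributions of the arrays equal, so a change shared by most genes would not be seen. Of 33252 clusters, 19460 had 1 symbol in the array annotation, 1754 several and 12038 none; 19429 took the current symbol through their Entrez ID. Where 769 genes had several clusters, the one with the highest mean stood for the gene. No member had more than 1.

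The members and lists were chosen with earlier results of these data known, and role groups follow gene function. limma 3.58.1 in R 4.3.3 was fitted to all 24 arrays and 18417 genes, with 1 coefficient per group. The contrast δ193 minus δscr was taken within each line, as a mean over lines and between K-ras classes, and the lines with each other in δscr arrays. Calls needed an adjusted p under 0.05 (Benjamini-Hochberg over all genes) and a fold of 1.25 or more. The code was tested on simulated data. Named are all called members, the largest difference of each role, ranges over 1, PRKCD, and pathway genes called in 2 lines or among the 3 largest of a line. Alternatives were the methods' t-test, each line fitted alone, other thresholds, normalizations, cluster and filter rules, a trended robust spread, array weights, a replicate block and each array left out. Array medians ran from 4.78 to 4.91, and precision is limited by having 3 arrays in a group. The labels do not say whether replicates were separate cultures, so p-values measure the spread between these arrays. Promoter windows were RefSeq on GRCh38.p14; where a gene had several the first listed was used.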

Additional observations from a re-analysis of the deposited data

Results flagged for a closer look

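For 2 members the change with δ193 differed between the K-ras dependent and the K-ras independent lines by the test of that difference in limma. The change of CDK6 in H2009 and H441 minus that in A549 and H460 was 0.64 (adjusted p = 0.00451), with every δ193 array below every δscr array in H2009, A549 and H460 and overlap in H441. For AURKB the difference was 0.37 (adjusted p = 0.00561), with all δ193 arrays above in H2009, H441 and H460 and below in A549. Each class holds 2 lines, and the error of the test comes from replicate arrays and not from lines. It thus compares these lines and not K-ras classes at large. The 2 dependent lines went opposite ways in CDK6 (-0.29 in H2009, 0.31 in H441), and the AURKB change was smaller in H2009 (0.10) than in H460 (0.16). Both class differences missed the threshold without the 6 H441 arrays, where MYBL2 (0.60), CCND3 (0.40) and RB1 (0.39) passed it.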

How the results depend on the processing

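No called change turned its direction under any alternative. Of the changes not called, 17 of the H441 members turned without δ193 replicate 2, 12 without replicate 3 and 8 without replicate 1. MCM4 (0.02 with all arrays) was called lower without replicate 3. In the other lines up to 7 members turned in H460, 6 in A549 and 4 in H2009 when 1 array was left out. The median change of the members in H441 was 0.19 without δ193 replicate 2 and -0.17 without replicate 3. Counts of called members (1 in H2009, 3 in H441, 1 in A549, 2 in H460) became 2, 1 and 3 in H2009, H441 and A549 by the methods' t-test unadjusted, and 0 in each of these after adjustment. With each line fitted alone they were 2, 0, 2 and, in H460, 3, and with array weights 2, 5 and 3 in the first 3 lines. Setting array medians equal gave 0 in H2009 and 1 in H460, and quantile normalization gave 1 in H460. A fold of at least 1.5 left 0 in H2009, 0 in H441, 1 in H460, 0 for the mean and 1 for the class difference, and 13 between H2009 and H460 and 7 between A549 and H460 in δscr arrays. With no fold minimum there were 2 in A549 and 4 for the mean. Without the 6 H441 arrays, chosen after seeing the data, there were 2 in H2009, 3 in A549, 3 in H460, 2 for the mean and 3 for the class difference, none of these last among the 2 called with H441. The replicate block gave 1, 3, 1 and 2 called members and 38 in place of 39 for the F test among lines, and changed no other count. The deviations of same-numbered replicates of a line had correlations from -0.09 to 0.28 over 12 pairs. The 2 above 0.1 were both in H2009 (0.28 for replicate 1 and 0.16 for replicate 2). The labels do not say whether same-numbered replicates were handled together, and this was not tested. Shares of all genes are given above for H2009, A549 and H460 fitted alone, for the fit without the H441 arrays, and for H441 without each δ193 array. With H441 alone 2.18% of all genes were called. For the other settings the counts are of members only, and whether they moved more than those of all genes was not tested. The cause of the shifts in the counts was not tested.

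Leaving out each array in turn gave 0 to 1 members in H2009, 2 to 19 in H441, 1 to 3 in A549, 0 to 3 in H460, 0 to 2 for the mean, 2 to 4 for the class difference and 38 to 41 among the lines. For pairs of lines the counts were 27 to 29 (H2009 and H441), 18 to 21 (H2009 and A549), 21 to 25 (H2009 and H460), 29 to 33 (H441 and A549), 31 to 34 (H441 and H460) and 14 to 22 (A549 and H460). H441 had 8 calls without δ193 replicate 2 and 19 without replicate 3. The same omissions gave A549 2 and 3, the mean 0 and 2, and the class difference 4 and 4. The mean was also 2 without H441 δscr replicate 1, H441 δ193 replicate 1, A549 δscr replicate 2 or 3, or A549 δ193 replicate 1. H460 had 0 without any 1 of its own arrays, 3 without H441 δ193 replicate 2, and 1 without any 1 array of A549 or H2009, H441 δscr replicate 1 or H441 δ193 replicate 1. The adjusted p of CDC20 in H441 and of E2F8 in H460 lay near 0.05. CDK6 in A549, AURKB in H441 and both class differences kept their calls without any 1 array. The t-test and the fits of lines alone give no value for the mean, the class difference or the F test. Depth does not apply to arrays, and CCND2, CDKN2B and E2F2 lay below the median of the gene means.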

Other observations

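The H441 δ193 arrays also differed in genes outside the cell cycle, of which 5 chosen after their values were seen are given here. DDIT3, a transcription factor of the integrated stress response, measured 9.28, 10.05 and 7.13 on δ193 replicates 1, 2 and 3, with a δscr mean of 6.58 ± 0.17 (SD, n = 3). CHAC1, a glutathione-degrading enzyme, measured 9.24, 9.17 and 6.51 (δscr 6.56 ± 0.29), and the cytokine IL6 8.83, 10.15 and 6.63 (δscr 7.05 ± 0.44). The cytokine IL1A measured 9.13, 9.90 and 6.83 (δscr 8.79 ± 0.33) and TXNIP, which binds thioredoxin, 10.19, 11.40 and 8.46 (δscr 10.51 ± 0.22). Replicate 3, the highest for most cell cycle genes, was the lowest of the 3 in each of these. It was the nearest of the 3 to the δscr mean for DDIT3, CHAC1 and IL6 and the farthest from it for IL1A and TXNIP, and their part in the spread of the cell cycle genes was not tested.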
